A study of Homo sapiens with 6 samples.

Results

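Involucrin (IVL), loricrin (LORICRIN) and keratinocyte proline-rich protein (KPRP) are encoded by 3 genes of the epidermal differentiation complex on chromosome 1, and the binding of the transcription factors FOSL2 and JUNB around them was described. All deposited regions with any base within 50 kb of the 3 gene bodies were taken, which gave 26 of the 75703 FOSL2 regions and 19 of the 40061 JUNB regions. Binding was measured by ChIP-seq in HaCaT, an immortalised cell line that arose from human skin keratinocytes, with 3 libraries made with a FOSL2 antibody and 3 made with a JUNB antibody. The study as a whole dealt with genetic risk variants of atopic dermatitis in enhancers. All 6 libraries came from HaCaT cells grown in DMEM with serum and antibiotics, with no treatment named, and they were built by ChIPmentation, a method that tags the precipitated chromatin with sequencing adapters by transposition. Each factor had 1 list of regions, made from all 3 of its libraries. No value below therefore has a replicate error, no difference was tested, and library depth is unknown. RNA was not analysed here, so the keratinocyte label was not checked against expressed markers.

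Involucrin is an early scaffold of the cornified envelope, the cross-linked protein shell that replaces the plasma membrane of keratinocytes as they die at the skin surface. Loricrin is the glycine-rich protein that reinforces the shell later and becomes its main component, and KPRP is a proline-rich protein of the upper epidermis. FOSL2 belongs to the FOS family and JUNB to the JUN family. Their members pair to form AP-1, a dimer that binds elements such as TGAGTCA. Matches were sought here with the wider pattern TGANTCA, where N is any base. Reporter work on the human involucrin gene placed functional AP-1 elements in a proximal region next to the start and in a distal region a few kilobases upstream, and an AP-1 element close to the start has also been described in the mouse loricrin gene.

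The 250 bases before each annotated start, from RefSeq on GRCh38.p14, are shown because they hold the proximal AP-1 element of IVL and its counterpart in LORICRIN. All 3 genes lie on the plus strand, and capitals mark each match to TGANTCA on either strand.
IVL, chr1:152908296-152908545: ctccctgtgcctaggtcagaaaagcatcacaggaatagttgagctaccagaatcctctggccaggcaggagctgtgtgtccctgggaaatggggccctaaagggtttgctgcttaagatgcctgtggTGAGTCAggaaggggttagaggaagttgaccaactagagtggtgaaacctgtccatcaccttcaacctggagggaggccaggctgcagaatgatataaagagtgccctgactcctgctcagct
LORICRIN, chr1:153259437-153259686: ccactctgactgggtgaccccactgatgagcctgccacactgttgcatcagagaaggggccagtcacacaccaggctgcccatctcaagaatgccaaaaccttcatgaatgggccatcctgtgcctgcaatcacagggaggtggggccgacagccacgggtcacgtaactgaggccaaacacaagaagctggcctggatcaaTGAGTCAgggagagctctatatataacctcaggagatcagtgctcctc
KPRP, chr1:152757775-152758024: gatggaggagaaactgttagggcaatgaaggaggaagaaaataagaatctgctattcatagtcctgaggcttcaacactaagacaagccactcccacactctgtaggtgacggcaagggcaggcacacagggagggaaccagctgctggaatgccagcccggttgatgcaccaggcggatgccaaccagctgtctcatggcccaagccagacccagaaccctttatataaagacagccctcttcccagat

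IVL and LORICRIN carried the same AP-1 word, TGAGTCA, once each in the window from 250 bases before to 50 bases after the start, and KPRP carried none. In IVL the word lay 123 to 117 bases upstream of the start, and in LORICRIN it lay 48 to 42 bases upstream. Of the 15811 protein-coding genes with a promoter sequence, 910 (5.76%) held TGANTCA on either strand in this window. The pattern takes any base at N, so this is not a share for TGAGTCA alone. A TATAAA word lay 30 to 25 bases upstream of the IVL start, and 2 such words, 1 on each strand and overlapping each other, lay in the KPRP window. LORICRIN had no exact TATAAA word in the window. Its printed sequence has a run of alternating T and A near the start, which this search does not count. A match to these letters describes the sequence and is not evidence of a bound site.

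Both factors occupied the IVL promoter with their summits on or beside the AP-1 word, and neither had a region at the LORICRIN word. The FOSL2 region at the IVL start ran over chr1:152908104-152908739, had a fold enrichment of 4.08, and its summit lay 120 bp upstream of the start, which is the central base of TGAGTCA. The JUNB region ran over chr1:152908204-152908685, had a fold enrichment of 3.69, and its summit lay 116 bp upstream, 4 bp from the centre of the word. Fold enrichment is the authors' ratio of signal over background for each region, and it is ranked here within its own list only. The 4.08 was higher than only 29.1% of the FOSL2 list, and the 3.69 than 26.4% of the JUNB list. By the deposited −log10 p these promoter regions ranked above 73.4% and 70.3%. Over all genes with a TGANTCA match in this window, 40.9% had a FOSL2 region over the match, 31.0% had a JUNB region and 26.8% had both. Among genes without a match, 19.3% had a FOSL2 region in the window and 22.1% had a JUNB region. These last shares count a region anywhere in the window and not over a word, so they are not a like measure.

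Of the 2 shared sites within 3 kb upstream of IVL, the one with the higher fold enrichment lay farther out, in the stretch where the distal regulatory region is known from reporter work. The FOSL2 region ran over chr1:152905788-152906888 with its summit 2152 bp upstream of the start and a fold enrichment of 6.06, higher than 55.8% of the FOSL2 list. The JUNB region ran over chr1:152905769-152906806 with its summit 2156 bp upstream and a fold enrichment of 6.65, higher than 76.5% of the JUNB list. The summits of the factors were 4 bp apart here, as at the promoter. By the deposited −log10 p the site ranked much higher, at 148 for FOSL2, above 94.1% of the list, and at 97.9 for JUNB, above 98.6%. No base sequence was used at this site, so the distal AP-1 element itself was not placed relative to the summits.

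**Figure D1:**
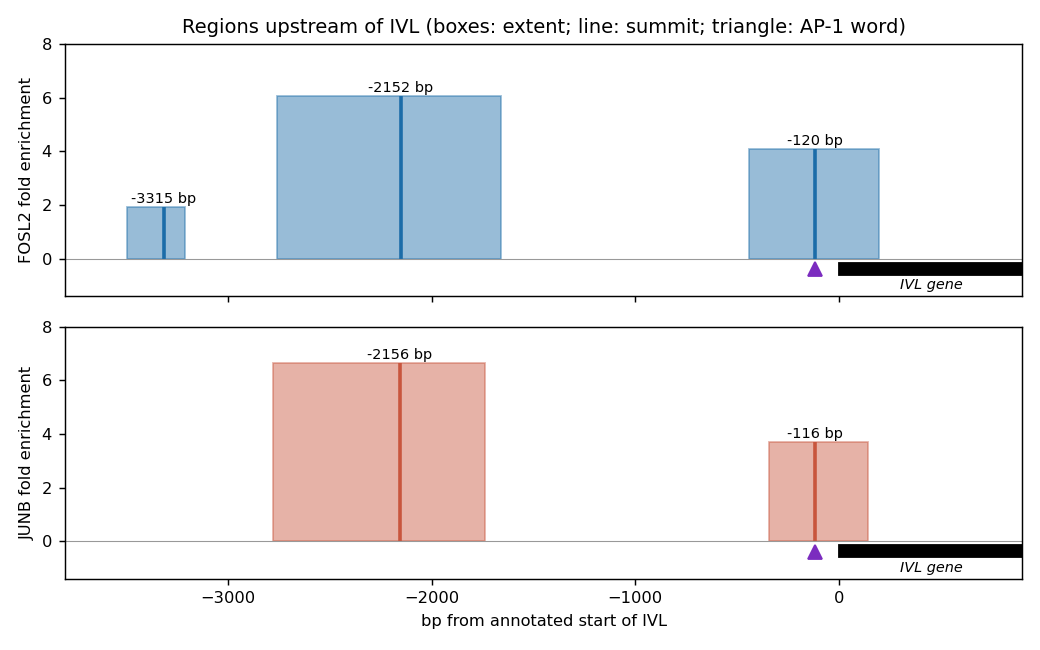
Regions of FOSL2 (above) and JUNB (below) upstream of IVL, with the distance from the annotated start in bp on the horizontal axis and fold enrichment on the vertical axis. Boxes span each region, vertical lines mark summits and the triangle marks the AP-1 word 123 to 117 bases upstream. Both factors have summits at the word and about 2152 to 2156 bp upstream, and the weak FOSL2 region 3315 bp upstream has no JUNB partner.

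A pair of shared sites this close to a start was uncommon. IVL had 2 shared regions with FOSL2 summits within 3 kb upstream of its start, KPRP had 1 and LORICRIN had 0. At least 1 such region was found for 13.3% of the 15811 genes, and at least 2 for 69 genes (0.436%). This count was made after the IVL regions had been seen and is a description. Another FOSL2 region, 3315 bp upstream of IVL, had a fold enrichment of 1.92, lower than all but 0.0898% of its list, and no JUNB region met it.

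Within 50 kb, IVL (chr1:152908546-152911886) had 12 FOSL2 and 11 JUNB regions, LORICRIN (chr1:153259687-153262124) had 5 and 2, and KPRP (chr1:152758025-152762056) had 9 and 6. Having any region in this window sets no gene apart, since 92.9% of the 19970 protein-coding genes had a FOSL2 region and 83.9% a JUNB region. Within 10 kb, IVL had 3 regions of each factor, KPRP had 3 and 2, and LORICRIN had 0, where 76.9% of protein-coding genes had a FOSL2 region and 64.0% a JUNB region. These 10 kb shares were not matched for gene length. The number within 50 kb was high at IVL: only 8.54% of protein-coding genes had at least 12 FOSL2 regions and 3.03% had at least 11 JUNB regions. Among the 3161 genes of at most 5 kb, whose windows are of like size, the shares were 1.65% and 0.791%. The median protein-coding gene had 5 FOSL2 and 3 JUNB regions. LORICRIN was close to that median, with at least as many regions at 54.3% of genes for FOSL2 and 68.8% for JUNB. KPRP lay between, with at least as many at 20.0% and 20.9%. Among genes of at most 5 kb the medians were 3 and 2, the shares for LORICRIN were 37.4% and 55.1%, and those for KPRP were 8.13% and 13.6%.

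**Figure D2:**
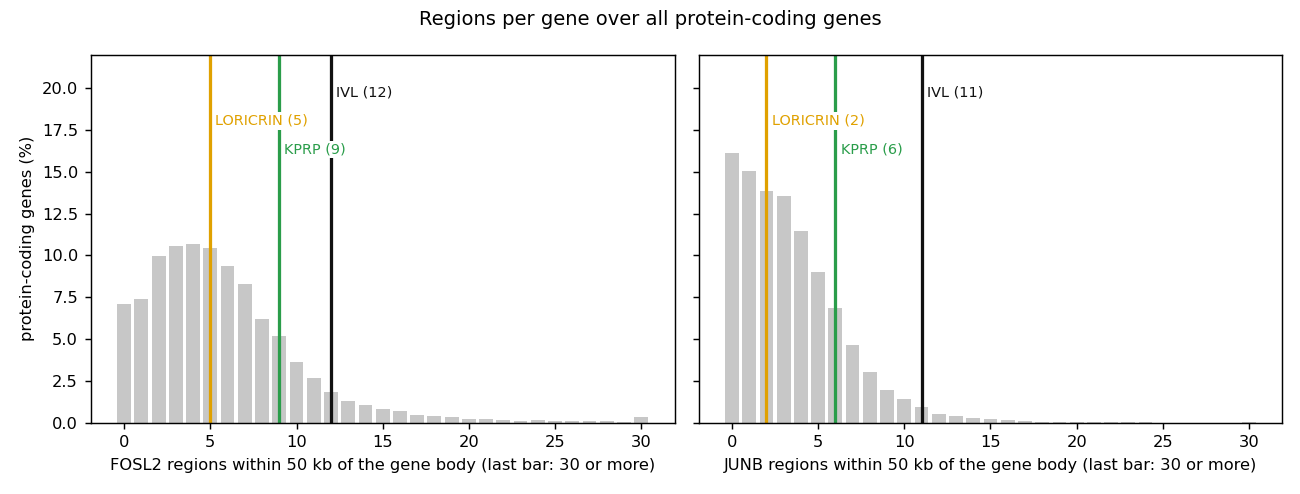
Percentage of protein-coding genes by their number of FOSL2 (left) and JUNB (right) regions within 50 kb of the gene body. Vertical lines mark IVL at 12 and 11 regions, LORICRIN at 5 and 2, and KPRP at 9 and 6.

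The regions near IVL formed 14 separate places, of which 9 were bound by both factors, 3 by FOSL2 only and 2 by JUNB only. Of the FOSL2 regions 9 of 12 (75.0%, 95% Wilson interval 46.8 to 91.1) met a JUNB region, against 41.1% of the whole FOSL2 list. Of the JUNB regions 9 of 11 (81.8%, 52.3 to 94.9) met a FOSL2 region, against 78.5% of the whole JUNB list. These intervals cover counting error in the lists only, and both include a wide range. The 2 summits of a shared place lay a median of 7 bp apart, from 2 to 178 bp, against a median of 31 bp over all 31150 shared FOSL2 regions. That list median was not matched for −log10 p. The median was 35 bp for the 4 shared places near KPRP and 108.5 bp for the 2 near LORICRIN.

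Upstream of the IVL promoter sites, a cluster of regions lay around the 3′ end of SMCP, a gene for a sperm mitochondrial protein that ends 23.5 kb before the IVL start. FOSL2 had 4 regions there, with summits 24.3, 23.4, 21.6 and 20.1 kb upstream of IVL and fold enrichments of 2.91, 3.05, 3.46 and 5.16. JUNB had 3, with summits 24.3, 21.5 and 20.1 kb upstream and fold enrichments of 2.07, 3.55 and 4.51. The strength thus increased toward IVL for both factors, and at the site nearest to IVL, 20.1 kb upstream, the summits were 2 bp apart. Only the first of these places had its summits inside SMCP. Farther out, a FOSL2-only region of 6.78 lay 34.8 kb upstream.

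At the outer edge, a shared region of 8.75 (FOSL2) and 6.74 (JUNB) had its summits just beyond 50 kb, 50.1 and 50.2 kb upstream, and was counted because its bases reach into the window. The next FOSL2 regions outside were weak upstream, at 2.11, and stronger downstream, at 6.09, and the next JUNB regions had 5.37 and 4.80. The upstream JUNB region of 5.37 is the one that also lies 28.1 kb past the KPRP start. The regions next outside the windows of LORICRIN had fold enrichments of 2.47 and 2.68 for FOSL2 and 2.59 and 4.01 for JUNB, and those of KPRP had 2.70 and 2.40 for FOSL2 and 5.37 and 6.74 for JUNB, with the upstream one first in each pair.

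Downstream of IVL the highest fold enrichments of the whole window were found. A place 46.0 kb past the start, between SPRR5 and SPRR4, genes of the small proline-rich envelope family, had a fold enrichment of 9.34 for FOSL2 and 9.43 for JUNB, higher than 84.9% and 95.5% of the lists. By −log10 p it ranked above 99.5% and 99.2%. As the top value of a window, it is less high for FOSL2. The top FOSL2 value within 50 kb was lower at 51.1% of protein-coding genes, and the top JUNB value at 88.6%. Among genes of at most 5 kb these shares were 64.5% and 93.0%. Inside the noncoding RNA gene LINC01527, 2 shared places lay 24.8 and 33.0 kb past the start. The first had 8.13 for FOSL2 and 5.60 for JUNB, and the second had 6.35 and 7.08. The factors thus ranked these places in opposite order. JUNB alone had 2 weaker regions closer to the gene, of 2.40 and 4.11, with summits 9.43 and 17.7 kb past the start. Neither factor had a summit inside the IVL gene body.

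**Figure D3:**
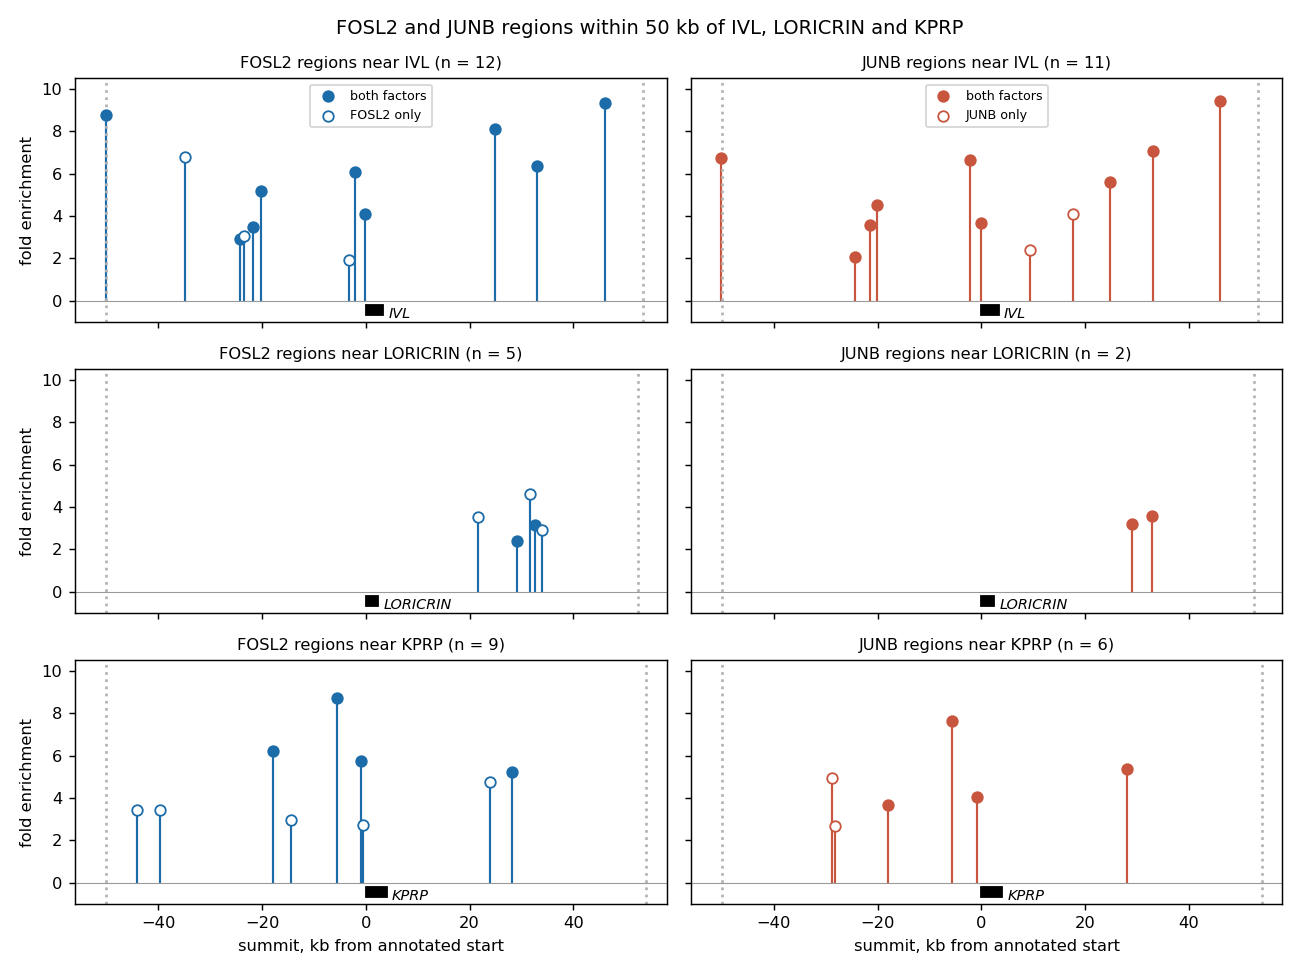
Fold enrichment (vertical axis) of each FOSL2 (left) and JUNB (right) region by the distance of its summit from the annotated start in kb, for IVL, LORICRIN and KPRP. Filled points are regions that meet a region of the other factor, open points do not, black boxes are the genes and dotted lines the limits of the windows. IVL has regions on both sides up to 9.34 and 9.43, LORICRIN has regions downstream only, and KPRP has its strongest regions 5.60 and 5.59 kb upstream.

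LORICRIN stood at the other end: no region of either factor lay on the gene, its promoter or anywhere upstream within 50 kb. The nearest upstream regions had summits 66.8 kb away for both factors, at 2.47-fold for FOSL2 and 2.59-fold for JUNB. The nearest downstream summits lay 21.6 kb past the start for FOSL2 and 29.1 kb for JUNB. The stretch around LORICRIN without any region was 88.0 kb long for FOSL2 and 95.3 kb for JUNB. A gene body at least as far from the nearest region as that of LORICRIN (18.9 and 26.2 kb) was found for 15.7% of all protein-coding genes for FOSL2 and 24.2% for JUNB. Among genes of at most 5 kb the shares were 32.4% and 40.5%, so the distance alone is not rare.

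The regions downstream of LORICRIN were weak and lay toward PGLYRP3, a peptidoglycan-recognition protein gene whose body begins 37.4 kb past the LORICRIN start. The FOSL2 fold enrichments were 3.52, 2.38, 4.64, 3.16 and 2.91, in order of distance, and all were below the list median of 5.56. The JUNB fold enrichments were 3.18 and 3.57, both below the list median of 4.79. Both JUNB regions met a FOSL2 region, with summits 70 and 147 bp apart, which is wider than at the IVL promoter sites. The strongest FOSL2 region, 31.7 kb past the start, had no JUNB partner. PRR9, a proline-rich protein gene upstream within the window, had no region on it.

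KPRP had its highest fold enrichments upstream, at a place bound by both factors. The place 5.60 kb upstream for FOSL2 and 5.59 kb for JUNB had fold enrichments of 8.73 and 7.65, higher than 80.3% and 85.6% of the lists, and summits 4 bp apart. The top value within 50 kb was lower at 41.9% of protein-coding genes for FOSL2 and 68.8% for JUNB. Among genes of at most 5 kb these shares were 56.2% and 78.3%. A second shared place lay 917 bp upstream, where both summits fell on the same base, with 5.74 for FOSL2 and 4.05 for JUNB. Another, 17.9 kb upstream for FOSL2 and 18.0 kb for JUNB, had 6.24 and 3.65. The promoter window itself, which holds no AP-1 word, had no region of either factor. A weak FOSL2-only region of 2.73 had its summit 581 bp upstream and ended before the window.

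Of 11 places near KPRP, 4 were bound by both factors, 5 by FOSL2 only and 2 by JUNB only. The shared share of the FOSL2 regions, 4 of 9 (44.4%, 18.9 to 73.3), is close to the 41.1% of the whole list, and that of the JUNB regions was 4 of 6 (66.7%, 30.0 to 90.3), against 78.5%. The FOSL2-only regions 44.0, 39.7 and 14.4 kb upstream had fold enrichments of 3.43, 3.42 and 2.95, all under the list median. The JUNB-only regions lay side by side, 28.8 and 28.2 kb upstream, with 4.96 and 2.68. Downstream, late cornified envelope genes follow. The shared place 28.2 kb (FOSL2) and 28.1 kb (JUNB) past the KPRP start had fold enrichments of 5.25 and 5.37. Its summits lay 75 and 141 bp upstream of the start of LCE1E, and both factors had a region in the promoter window of that gene. A FOSL2-only region of 4.76 lay 24.0 kb past the start. KPLCE, LCE4A, LCE1F, LCE1D, LCE1C and LCE1B also reach into the window and held no summit, nor did SPRR5 or LCE7A near IVL.

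**Figure D4:**
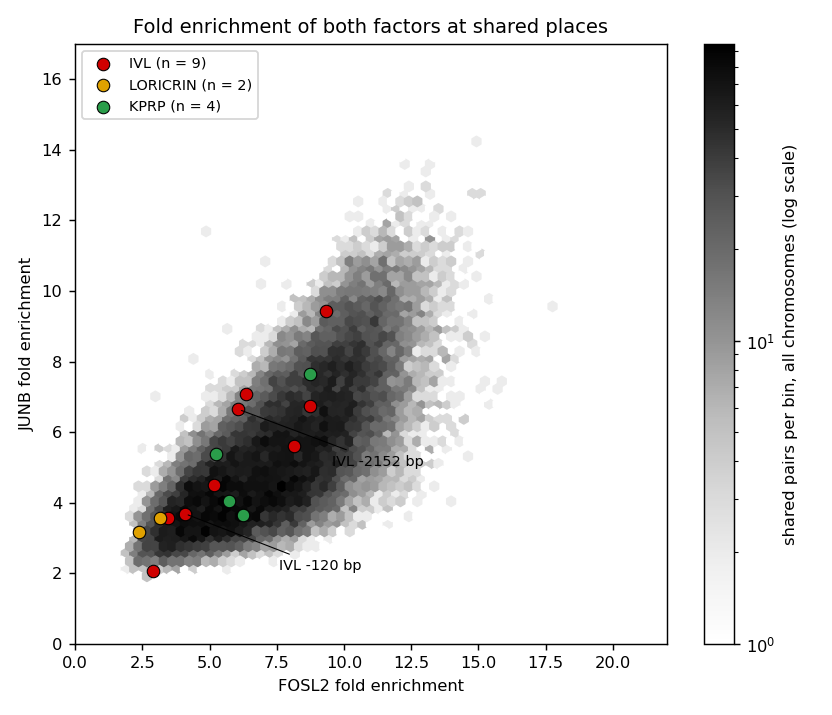
Fold enrichment of FOSL2 (horizontal) and JUNB (vertical) at shared places. Grey hexagons count all shared pairs on a log colour scale and coloured points are the 9 pairs near IVL, 2 near LORICRIN and 4 near KPRP. The distal IVL site (6.06 and 6.65) and the place 46.0 kb past the IVL start (9.34 and 9.43) lie toward the JUNB side of the cloud, and the LORICRIN pairs lie at its low end.

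Read by fold enrichment, the regions near the 3 genes were not strong ones. The median was 4.36 for the 26 FOSL2 regions, against 5.56 for the list, and 4.11 for the 19 JUNB regions, against 4.79. Only 9 FOSL2 and 8 JUNB regions were at or above the median rank of their list. By −log10 p, however, 16 and 12 were. The measures part because 25 of the 26 FOSL2 regions and 18 of the 19 JUNB regions had a lower fold enrichment than the median of regions in the same list whose −log10 p was within 10% of theirs.

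This low ratio was shared by much of chromosome 1. Beyond the longest stretch of the chromosome without a FOSL2 region, which spans 18.5 Mb and lies before all 3 genes, 78.8% of 3993 FOSL2 regions and 81.8% of 2351 JUNB regions were below the median for their −log10 p, against 48.3% and 48.8% of the whole lists. Before that stretch the shares were 36.6% and 32.0%. Shares also differed between chromosomes, for example 78.5% and 81.9% on chromosome 9 and 14.4% and 6.42% on chromosome 4. The part that these differences play in the fold enrichments near the 3 genes was not tested. Ranked among the regions of the same stretch of chromosome 1, an alternative chosen after seeing the data, the median percentile of fold enrichment was 39.0 for FOSL2 and 47.0 for JUNB, against 33.3 and 36.3 in the whole lists.

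Ranked in the whole lists, the lowest ratios near the 3 genes were upstream of IVL. Each of the 7 FOSL2 regions from 24.3 kb to 120 bp upstream of its start had a fold enrichment lower than all but at most 1.48% of list regions of like −log10 p, and each of the 5 JUNB regions from 24.3 kb to 116 bp upstream was lower than all but at most 2.55%. At the distal site the fold enrichment of 6.06 compares with a median of 10.0 at like −log10 p for FOSL2, and 6.65 with 9.72 for JUNB. At the promoter site 4.08 compares with 8.17 for FOSL2, and 3.69 with 6.22 for JUNB. Against regions of like −log10 p on the same stretch of chromosome 1 alone, the FOSL2 percentages reached 4.57 and overlapped those near LORICRIN, where the lowest was 4.37. The JUNB percentages reached 6.91, against a lowest value of 8.70 near LORICRIN. In the whole-list comparison, the FOSL2 region 34.8 kb upstream was above 21.3% of its like and the one 24.8 kb past the start above 42.9%. The whole-list percentages near LORICRIN ran from 3.00 to 36.3, and those near KPRP from 4.14 to 41.2, over both factors.

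**Figure D5:**
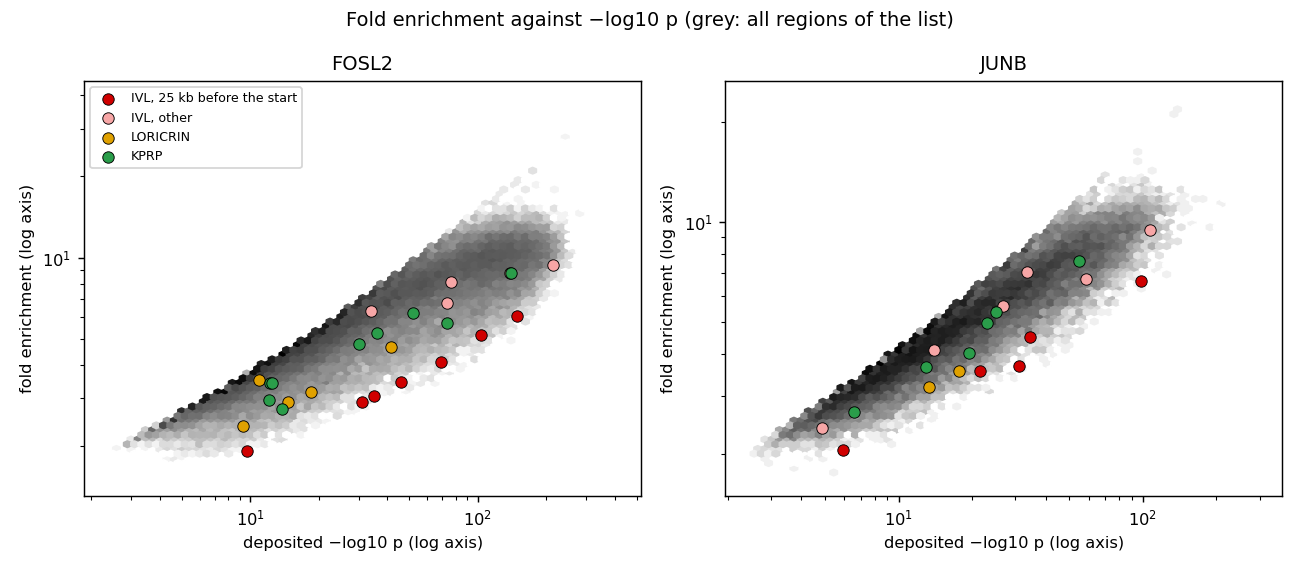
Fold enrichment against the deposited −log10 p, both on log axes, for FOSL2 (left) and JUNB (right), with all regions of the list in grey. The 7 FOSL2 and 5 JUNB regions in the 25 kb before the IVL start (red) follow the lower edge of the cloud.

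Set beside the other genes of the envelope, IVL had among the most regions. All 51 genes of a list of envelope precursors, cross-linking enzymes and neighbours had a FOSL2 region within 50 kb, with a median of 6 and a range of 2 to 13, and 48 of 51 had a JUNB region, with a median of 3 and a range of 0 to 11. These counts are near the background of all protein-coding genes, of which 92.9% and 83.9% had a region, with medians of 5 and 3. LCE3A, LCE2C and LCE2D had no JUNB region. Many of these genes lie next to each other and share regions, so they are not independent. Of the 43 list genes with a promoter sequence, 17 (39.5%) held a TGANTCA match, against 5.76% of all genes. Many of these promoters belong to families of related genes, so they are not independent either. No LCE gene held a match, while most SPRR genes with a promoter sequence did. FOSL2 covered the match at 5 of the 17 (TCHHL1, FLG, IVL, SPRR1A and SPRR1B) and JUNB at 4 (IVL, SPRR1A, SPRR1B and SPRR3). Over all 910 genes with a match the shares covered were 40.9% and 31.0%, so the list does not stand above them. LORICRIN was 1 of many list genes with a match and no region over it. These genes were named after their values were seen.

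The patterns most like each gene were sought by the distance over 4 log2 values, the numbers of regions and the highest fold enrichments of both factors within 50 kb, among list genes that share no region with it. For IVL they were SPRR1B, a small proline-rich envelope protein gene (distance 0.614, with 9 FOSL2 and 8 JUNB regions), CSTA, the gene of the protease inhibitor cystatin A (0.684, with 10 and 7), and SPRR2D (0.769, with 9 and 7). For LORICRIN they were the transglutaminase gene TGM5 (0.607, with 6 and 3), LCE2A (0.670, with 5 and 3) and LCE1C (0.683, with 7 and 2). The highest values of LCE2A (6.24 and 4.96) and LCE1C (5.74 and 5.37) come from regions also counted near KPRP. Those of TGM5 were 6.25 and 3.97, and all of these lie above the 4.64 and 3.57 of LORICRIN. The distance takes no account of where the regions lie. For KPRP they were the transglutaminase gene TGM3 (0.161, with 8 and 6), CSTA (0.271) and SPRR2D (0.281). SPRR1A, which shares regions with IVL and was therefore no candidate, had as many JUNB regions as IVL, with 11, and 10 FOSL2 regions.

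Genes for transcription factors and signals that act on involucrin or on epidermal differentiation also had regions nearby. All 20 listed had a FOSL2 region within 50 kb (median 9) and 19 had a JUNB region (median 5), against 92.9% and 83.9% of all genes. The highest JUNB fold enrichments were near CEBPB, a C/EBP factor of differentiating keratinocytes (10.6 for FOSL2 and 11.0 for JUNB), TFAP2A, an AP-2 factor (12.1 and 9.24), HOPX, a homeodomain-only protein of the upper epidermis (11.5 and 9.07), and GRHL1, a grainyhead-like factor of desmosomal genes (12.3 and 8.95). The counts were not matched for gene length or gene density.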

How the data were processed

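Binding of FOSL2 and JUNB in HaCaT cells was analysed from 1 deposited list of narrow peaks per factor on hg38, named as a conservative overlap of its 3 libraries. Bowtie2, SAMtools 1.8, Picard 1.89, MACS2 and deepTools appear in the submitters' processing notes with no role. The control and the rule that combined libraries were not stated there or in the labels. The deposited fold enrichment is a linear ratio, the deposited −log10 p and −log10 q were used as the authors gave them, and the deposited score, 10 times the −log10 p, was not used further. Of 75704 FOSL2 and 40061 JUNB rows, 1 FOSL2 row on another chromosome than 1 to 22 or X was dropped.

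Genes came from RefSeq (GRCh38.p14), without exons, and 3 of 3 members matched. Regions counted as shared with at least 1 bp in common. Percentiles are shares of the list with a lower value. Motifs were matched exactly on both strands, with a palindromic place counted once: AP-1 TGANTCA, CRE TGACGTCA, GC box GGGCGG, C/EBP TTGCNNAA, TEAD GGAATG, KLF CACCC, ETS CCGGAAG, E-box CANNTG and TATA box TATAAA. Words of AP-1 and the TATA box are described. CRE, GC box, C/EBP and ETS words had no match in the 3 windows (2.59, 58.5, 8.37 and 14.2% of promoters hold one), TEAD had 1 and E-box 3 in KPRP (11.7 and 64.5%), and KLF had 1 in KPRP and 2 in LORICRIN (62.9%). Wilson intervals are at 95% and treat neighbouring regions as independent, which they are not. Overlap and motif code was tested on simulated data (Python 3.11.15, pandas 2.3.3, NumPy 2.4.6, statsmodels 0.14.6).

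Named were the 3 genes with all their regions, protein-coding genes in their windows, the 3 list genes nearest to each in pattern, and the 4 factor genes of highest JUNB fold enrichment. Some genes the rule selects are not named. Members and gene lists were chosen with earlier results of these data known. The tested alternatives were other distances, summit placement, −log10 q of at least 10 and stricter sharing.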

Additional observations from a re-analysis of the deposited data

How the results depend on the processing

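The counts of 26 FOSL2 and 19 JUNB regions moved by over 1.5 times with 1 alternative, a distance of 10 kb, which left 6 and 5 regions, and the 15 shared FOSL2 and 15 shared JUNB regions became 4 and 4. At 10 kb LORICRIN had 0 regions of either factor, and IVL had 3 of each. At 100 kb the counts were 39 and 27, with 21 shared regions of each factor, and the FOSL2 and JUNB counts were 20 and 17 for IVL, 9 and 4 for LORICRIN and 14 and 7 for KPRP, with windows that overlap. With −log10 q of at least 10, LORICRIN had 3 FOSL2 regions. With the summit required in the window, −log10 q of at least 10, reciprocal overlap of 50% or summits within 100 bp, shared regions were 13 or 14 of each factor. The median fold enrichments of 4.36 and 4.11 ranged from 3.52 to 4.96 and from 4.05 to 4.74 and stayed within their 95% order-statistic intervals. The alternatives reuse many of the same regions and the intervals are wide, so staying within them says little about stability. Ranked by fold enrichment among regions of like −log10 p on the same stretch of chromosome 1, a comparison chosen after seeing the data, 4 of the 7 FOSL2 and 3 of the 5 JUNB regions before IVL were in the lowest 3%. The cause was not tested. No paired analysis was possible because each factor had 1 list for its 3 libraries, and for the same reason no library could be left out. Depth is unknown, so a place without a region may hold binding too weak to be listed.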

Other observations

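The block of low fold enrichment upstream of IVL was set beside the rest of both lists, by a rule chosen after it was seen. Regions with a fold enrichment lower than all but 3% of those of like −log10 p made up 2.90% of the FOSL2 list and 2.89% of the JUNB list. At IVL, 7 such FOSL2 regions followed one another without interruption, from 24.3 kb to 120 bp upstream of the start. The FOSL2 list had 1532 runs of such regions, of which 4 were at least that long, and 7 was the longest. At the same place JUNB had a run of 5, and 20 of its 742 runs were at least that long, the longest having 8. Compared only with regions of the same stretch of chromosome 1, 4 of the 7 FOSL2 and 3 of the 5 JUNB regions stayed under 3%, so neither run was uninterrupted by that comparison, and the percentages reached 4.57 and 6.91. The distal IVL site was above 4.57% of FOSL2 and 2.13% of JUNB regions of like −log10 p, and the promoter site above 3.20% and 0.676%. The background signal under the regions was not analysed here, and no cause was tested.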
